A study of Rattus norvegicus with 8 samples.

Results

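Cullins and the core subunits of the ubiquitin ligases they build were examined as a set of 10 genes chosen by family, the cullins Cul1, Cul2, Cul3, Cul4a, Cul4b, Cul5 and Cul7, the RING subunits Rbx1 and Rnf7, and Nedd8. Of these, 9 had a row among the 17055 gene symbols of the deposited count table, and all 9 passed the filter on low counts that left 10522 genes for testing. Cul7 is not analysed here. Cul5 had been put forward because its level was higher in the infarct animals, so its difference between the groups is described below without a test. The other members were listed by family, though with earlier results of these data known.

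Cullins are the long scaffold proteins at the centre of cullin-RING ubiquitin ligases, the largest family of enzymes that mark proteins with ubiquitin. A cullin binds an adaptor and a substrate receptor at one end and a small RING protein at the other, where the ubiquitin-carrying enzyme docks. Attachment of the ubiquitin-like protein Nedd8 to the cullin switches the ligase on, and its removal by the COP9 signalosome, a protein complex, lets Cand1 exchange the receptor. In muscle these ligases serve the turnover of regulatory and contractile proteins, for example Cul1 with the F-box protein atrogin-1 and Cul5 with SOCS-box proteins such as Asb2.

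The counts came from RNA sequencing of diaphragm, the main breathing muscle, from 8 Sprague-Dawley rats 16 weeks after chest surgery. In the 4 MI animals (replicates 1 to 4) a myocardial infarction had been made by tying the left anterior descending coronary artery. The 4 Sham animals (replicates 5 to 8) had their chest opened likewise, with the artery left untied. Every library came from a separate animal. Library totals ran from 8566143 to 15944048 counts in MI and from 7941402 to 24967251 in Sham. Levels are given as counts per 1000000 after TMM scaling (CPM), and because transcript lengths were not used they are compared between groups for 1 gene and not between genes. Muscle fibre markers were abundant in every library, at 111421 to 147160 summed CPM in MI and 122199 to 145689 in Sham, with 9 of 9 measured markers above 0 throughout.

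The 250 bases before the annotated transcription start are shown for Cul5, because of the members it differed most between the groups, and for Rnf7, because it is the RING partner of Cul5. The sequences are those of RefSeq for the GRCr8 assembly, for Cul5 at chr8:62962572-62962821 and for Rnf7 at chr8:105927406-105927655, both read from the minus strand, 5′ to 3′. Capitals mark matches to the motifs searched.
Cul5: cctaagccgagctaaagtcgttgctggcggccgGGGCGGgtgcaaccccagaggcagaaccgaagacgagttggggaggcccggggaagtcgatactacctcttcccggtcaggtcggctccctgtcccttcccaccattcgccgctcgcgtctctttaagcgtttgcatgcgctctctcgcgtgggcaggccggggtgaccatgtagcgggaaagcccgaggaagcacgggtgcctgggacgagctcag
Rnf7: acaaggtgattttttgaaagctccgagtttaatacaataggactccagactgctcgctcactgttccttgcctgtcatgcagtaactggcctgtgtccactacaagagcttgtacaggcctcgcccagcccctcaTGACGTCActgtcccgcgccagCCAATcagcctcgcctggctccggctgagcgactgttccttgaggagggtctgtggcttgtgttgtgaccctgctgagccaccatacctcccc

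Each motif was searched on both strands. The GC box was searched as GGGCGG and the CCAAT box as its own 5 letters. The TATA box was searched as TATAAA, and the core of Ets factor sites as CCGGAA. For the E-box of basic helix-loop-helix factors CACGTG was used. The cAMP response element was searched as TGACGTCA. The Cul5 window held 1 GC box, a motif found in 58.8% of the windows of the same length from 8232 tested genes. The Rnf7 window held a CCAAT box (35.1% of tested genes) and a cAMP response element (2.94%). Across the 8 measured members with a RefSeq window, 5 had a GC box, 3 a CCAAT box, 2 an Ets core, 1 a cAMP response element and 0 a TATA box or an E-box. Of the windows of tested genes, 24.3% had an Ets core, 6.54% a TATA box and 7.92% an E-box. The share of G and C was 65.2% in the Cul5 window and 56.4% in that of Rnf7, between 50.0% for Cul4b and 75.2% for Cul4a among the 8 members. The median was 51.2% over all 33465 windows, a wider set than the tested genes used for the motifs. The 2 sets differ, since the GC box was in 30.5% of all windows, so this median is no like background for the members. These matches describe the letters of the windows. RefSeq also has Cul5 transcripts that begin further upstream, and the counts do not tell which start was used.

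Cul5, the cullin of ligases with SOCS-box receptors, was the member with the largest difference. Its level was 103.1, 87.2, 92.7 and 92.9 CPM in MI replicates 1 to 4, against 68.9, 75.6, 73.1 and 69.5 CPM in Sham replicates 5 to 8. The lowest MI library, replicate 2, lay above the highest Sham library, replicate 6, so the groups did not overlap. The means were 94.0 ± 6.65 CPM in MI and 71.8 ± 3.16 CPM in Sham (SD, n = 4 each). On the log2 scale the edgeR estimate was higher in MI by 0.39, or 1.31-fold. This is the difference for which the gene was chosen, and across the tested genes 4.55% had groups without overlap, made up of 2.09% with MI above and 2.46% with MI below Sham. Without MI replicate 1, the highest library, the log2 fold change was 0.33, and the other libraries left out in turn gave values up to 0.42. The animal numbers in the labels fall in a low range, which holds 3 animals (replicates 1 and 2 of MI and replicate 5 of Sham), and a high range with the other 5. Within the low range Cul5 was higher in MI by 0.46 and within the high range by 0.35, both on the log2 CPM scale. As every MI library lay above every Sham library, the sign in each range was fixed in advance. It was largely fixed with 1 library left out too, so these values describe the size and are no separate evidence. In the RefSeq list Cul5 overlaps 2 non-coding genes, a long non-coding RNA and a small nucleolar RNA, and without strand the reads of overlapping genes cannot be told apart. The same limit holds for Cul3, Cul4b and Rnf7, which each overlap a long non-coding RNA gene, and for Cul2, which overlaps a pseudogene.

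The share of Cul5 in the reads of the 6 measured cullins of the set, without Cul9, is given to describe the same counts further. Since Cul5 was chosen for its higher level in MI, the choice largely fixes that this share is higher there, and it is no separate evidence. The share was 11.8%, 9.67%, 10.9% and 10.7% in MI replicates 1 to 4, against 8.08%, 8.95%, 8.83% and 8.72% in Sham replicates 5 to 8. The shares of the other 5 overlapped between the groups. Cul4a averaged 17.8% ± 1.26 of cullin reads in MI and 20.1% ± 1.59 in Sham (SD, n = 4 each), and Cul2 22.3% ± 1.33 in MI and 23.4% ± 0.472 in Sham. Longer transcripts give more reads, so these shares set libraries side by side and do not rank the cullins.

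**Figure D1:**
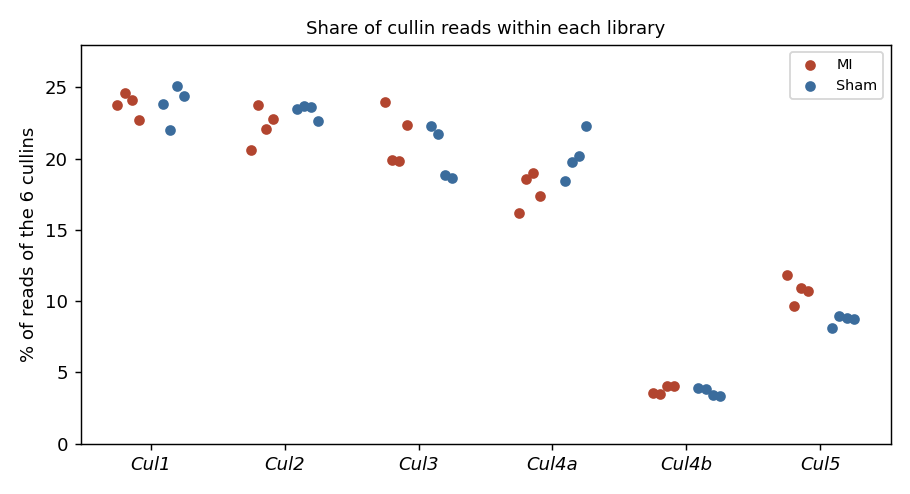
Share of the reads of the 6 measured cullins of the set taken by each cullin (vertical axis, %). There is 1 point per library, with MI left of Sham for each gene. Cul5 lay between 9.67% and 11.8% in MI and between 8.08% and 8.95% in Sham, while the points of the other 5 cullins overlapped between the groups.

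Rnf7, also called Rbx2, is the RING subunit that works with Cul5. It was at 39.0, 34.0, 41.3 and 29.9 CPM in MI replicates 1 to 4, against 33.8, 37.1, 34.3 and 34.7 CPM in Sham replicates 5 to 8. The MI libraries held both the highest and the lowest values, and their spread was 14.2% of the mean, against 4.25% in Sham. The log2 fold change was 0.05 ± 0.11 (SE), with a 95% interval from -0.19 to 0.28, and the edgeR adjusted p = 0.913 by the quasi-likelihood test. Its sign turned without MI replicate 3, and without MI replicate 1 it was 0.0006. In reads, the ratio of Cul5 to Rnf7 within a library was 2.64 ± 0.358 in MI and 2.05 ± 0.0554 in Sham (SD, n = 4 each). It ran from 2.24 to 3.11 in MI and from 2.00 to 2.13 in Sham. This ratio carries the Cul5 difference for which the gene was chosen and adds no separate evidence.

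Rbx1, the RING subunit of the ligases built on Cul1 to Cul4, was at 127.4, 104.6, 119.2 and 105.9 CPM in MI replicates 1 to 4, against 103.8, 110.7, 97.6 and 100.02 CPM in Sham replicates 5 to 8. MI replicates 1 and 3 were the highest of the 8 libraries, and the groups overlapped through MI replicates 2 and 4. The log2 fold change was 0.15 ± 0.09 (95% interval -0.04 to 0.34), and with an edgeR adjusted p = 0.646 Rbx1 had the smallest p of the members other than Cul5. Without MI replicate 1 it was 0.09. RefSeq names 2 pseudogenes of Rbx1 in rat, so part of its reads may have been assigned elsewhere or lost.

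Nedd8, the modifier that is attached to cullins, was at 101.9, 77.6, 91.2 and 84.5 CPM in MI replicates 1 to 4, against 89.0, 81.6, 78.5 and 70.1 CPM in Sham replicates 5 to 8. MI replicate 1 was the highest and Sham replicate 8 the lowest, with the other 6 libraries interleaved. The log2 fold change was 0.15 ± 0.10 (95% interval -0.07 to 0.38; edgeR adjusted p = 0.690), and 0.07 without MI replicate 1. In the low range of animal numbers the difference was -0.0011 and in the high range 0.20 on the log2 CPM scale. In the RefSeq list Nedd8 overlaps Gmpr2, a guanosine monophosphate reductase gene, with the same limit on strand.

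**Figure D2:**
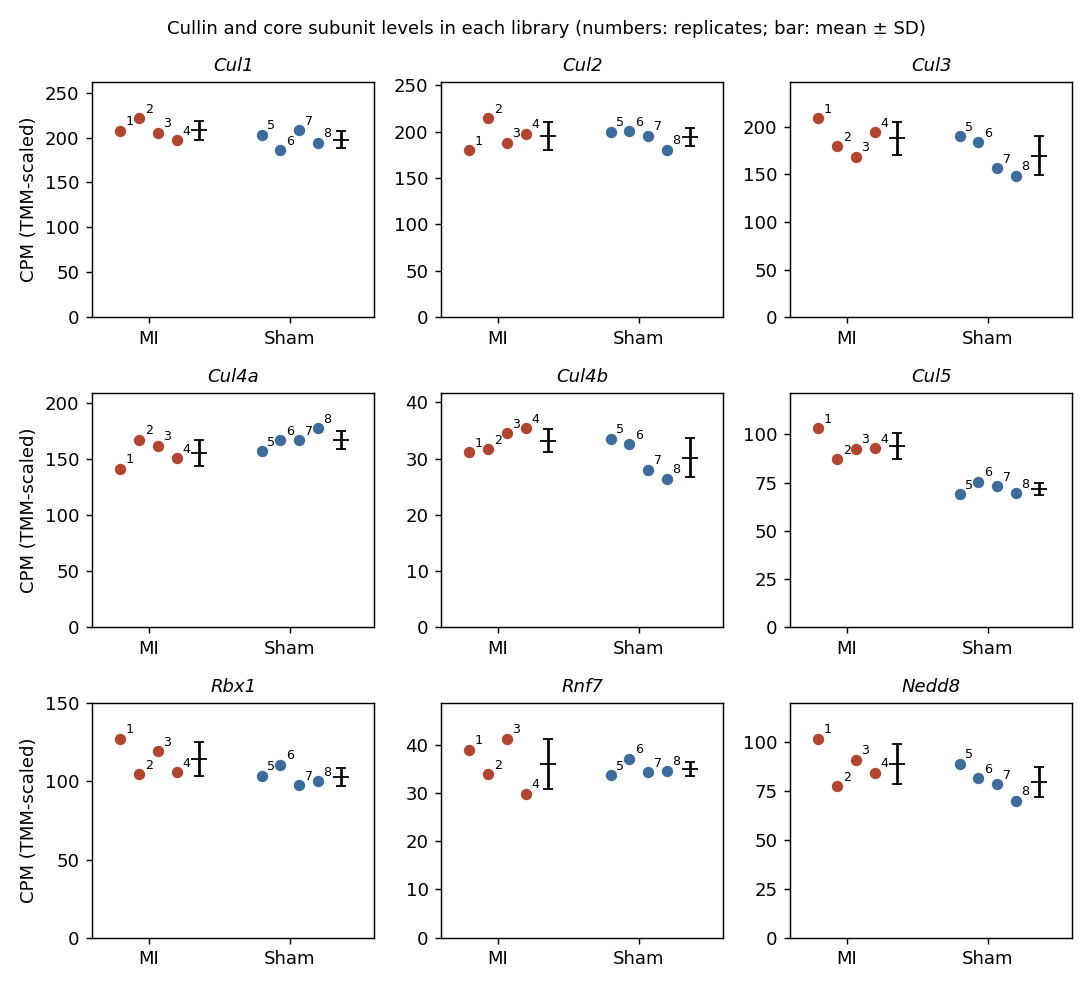
Level of each measured member (vertical axis, TMM-scaled CPM, starting at 0) in the 4 MI libraries, left, and the 4 Sham libraries, right. Points carry their replicate number and the black bar is the mean ± SD. Only in the Cul5 panel do all MI points, from 87.2 CPM up, lie above all Sham points, which reach 75.6 CPM.

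Cul1, the scaffold for F-box receptors, was at 207.4, 221.6, 205.6 and 197.0 CPM in MI, against 203.0, 185.9, 208.1 and 194.4 CPM in Sham. All 8 values lay close together, with a spread of 4.91% of the mean in MI and 4.94% in Sham. The log2 fold change was 0.07 ± 0.07 (95% interval -0.08 to 0.23; edgeR adjusted p = 0.774). Its estimate went down to 0.04 without MI replicate 2. In the RefSeq list Cul1 overlaps Ezh2, a histone methyltransferase gene, so the limit on strand applies here too.

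Cul2, the scaffold used by the von Hippel-Lindau protein, was the member with the smallest difference. Its values were 179.7, 214.5, 188.1 and 197.8 CPM in MI and 200.1, 200.2, 195.7 and 180.7 CPM in Sham, with MI libraries at both ends. The means were 195.0 ± 15.0 CPM in MI and 194.2 ± 9.22 CPM in Sham (SD, n = 4 each). The log2 fold change was 0.01 ± 0.08, with a 95% interval from -0.16 to 0.17, or 0.893-fold to 1.13-fold. Its sign turned in 5 of 16 alternative settings. RefSeq names 1 pseudogene of Cul2.

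Cul3, the scaffold for BTB-domain receptors, among them the muscle proteins of the Kelch family, varied more between animals. It was at 209.0, 179.4, 168.6 and 194.0 CPM in MI, against 190.0, 183.9, 156.2 and 148.6 CPM in Sham. The 2 lowest libraries were Sham replicates 7 and 8, and MI replicate 3 lay below Sham replicates 5 and 6. The log2 fold change was 0.15 ± 0.10 (95% interval -0.08 to 0.37; edgeR adjusted p = 0.698). It was 0.08 without MI replicate 1.

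Cul4a and Cul4b are close relatives that both build ligases on the adaptor Ddb1, and reads of such paralogs can be divided between them in counting. Cul4a was at 141.3, 167.4, 161.9 and 150.9 CPM in MI, against 157.0, 166.9, 167.0 and 177.4 CPM in Sham, and was the only member below 0, with a log2 fold change of -0.10 ± 0.08 (95% interval -0.27 to 0.06; edgeR adjusted p = 0.707; -0.07 without MI replicate 1). Cul4b was at 31.2, 31.7, 34.5 and 35.4 CPM in MI, against 33.5, 32.6, 28.05 and 26.45 CPM in Sham. Its log2 fold change was 0.14 ± 0.10 (95% interval -0.09 to 0.36; edgeR adjusted p = 0.710), or 0.08 without Sham replicate 8. The 2 genes thus lay on opposite sides of 0, each within the spread between animals. Reads of Cul4b per read of Cul4a were 0.215 ± 0.0188 in MI and 0.182 ± 0.0286 in Sham (SD, n = 4 each), with overlapping ranges. In the low range of animal numbers the Cul4b difference was -0.09 and in the high range 0.27 on the log2 CPM scale. RefSeq names 1 pseudogene of Cul4b.

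Among the 8 members other than Cul5, 0 passed an adjusted p of 0.05, where 0% of all tested genes did. At an unadjusted p under 0.05 the count was 0 of 8, against 8.14% of all tested genes, and 0 of 8 had groups without overlap. DESeq2 and limma-voom also gave 0 of 8 at either threshold. Of these 8, 7 had a log2 fold change above 0 and the median was 0.10, against 48.7% of all tested genes and a median of -0.0070. The 95% intervals of all 8 lay between -0.27 and 0.38. Members rested on 215 counts (Cul4b in Sham replicate 8) to 5394 counts (Cul1 in Sham replicate 7), which sets a counting error of 6.82% for the first and 1.36% for the second. The values concern RNA of whole diaphragm, in which fewer cells of a type and less RNA per cell cannot be told apart.

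**Figure D3:**
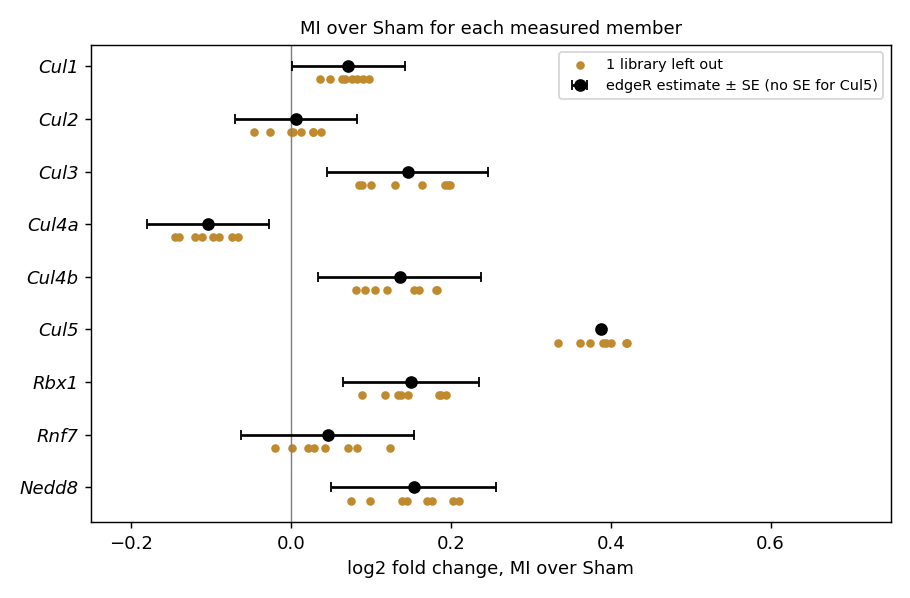
Log2 fold change of MI over Sham for each measured member (horizontal axis), with the edgeR estimate in black, its SE as a bar for all members but Cul5, and, below it, the estimates with 1 library left out in turn. Cul5 stood at 0.39 with a range of 0.33 to 0.42, and the other members between -0.10 for Cul4a and 0.15 for Nedd8.

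Members differed in their estimated variation between animals. The biological coefficient of variation that edgeR estimated was 9.57% for Cul1, 9.88% for Cul5, 9.93% for Cul4a and 10.01% for Cul2. Of all tested genes, 1.35% had a lower value than Cul1, 2.99% than Cul5, 3.43% than Cul4a and 4.00% than Cul2. Rnf7 had the highest estimate of the members at 12.4%, with 30.1% of the tested genes below it. Its plain spread was the largest of the members in MI, at 14.2% of the mean, and the smallest in Sham, at 4.25%. The edgeR estimate also depends on the level of a gene, so it does not by itself rank the members by steadiness. MI replicate 1 had the highest level of all 8 libraries for Cul3, Cul5, Rbx1 and Nedd8 and the lowest for Cul2 and Cul4a. Sham replicate 8 had the lowest level for Cul3, Cul4b and Nedd8 and the highest for Cul4a.

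**Figure D4:**
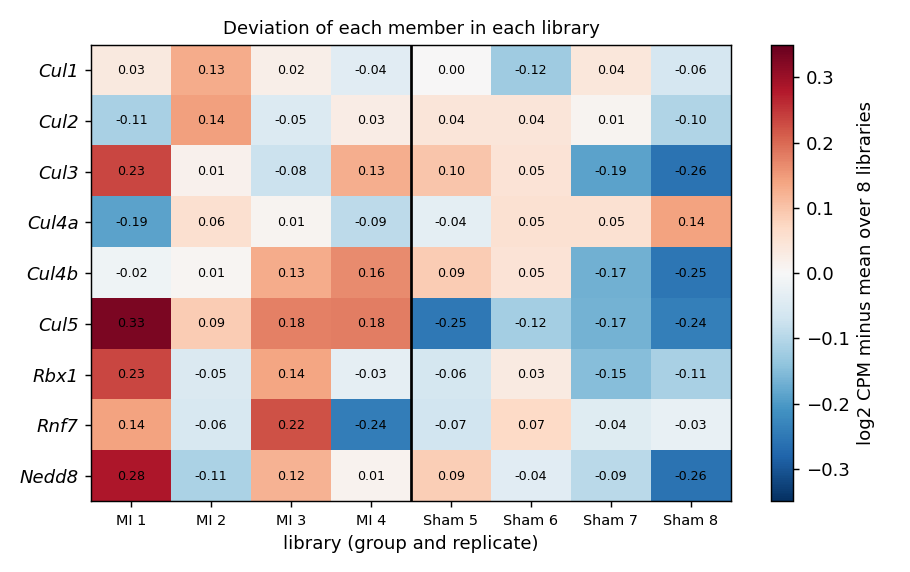
Log2 CPM of each measured member (rows) in each library (columns, MI left of Sham), minus the mean of the gene over the 8 libraries, with red for above and blue for below. Cul5 is above its mean in the 4 MI libraries, by up to 0.33 in replicate 1, and below it in the 4 Sham libraries, and no other row divides at the line between the groups.

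The genes whose course over the 8 libraries was most like that of Cul5 were searched among 10154 genes with a mean of at least 1 CPM, by the root-mean-square difference of their mean-centred log2 CPM. Psmd10, a chaperone of proteasome assembly also called gankyrin, was the nearest at a difference of 0.06, where Cul5 itself had a root-mean-square of 0.21 about its mean and the median gene differed by 0.29. Its levels were 10.4, 8.74, 8.64 and 8.30 CPM in MI, against 7.10, 7.27, 6.94 and 6.77 CPM in Sham. The membrane scaffold gene Mpp6, the splicing regulator Ptbp2, the ribosomal protein gene Rps3a and the mitochondrial ribosomal protein gene Mrpl21 followed at 0.08 to 0.09. Each was highest in MI replicate 1, as Cul5 was. Being picked for a course like that of Cul5, they had to be higher in MI and are given as a description. The nearest tested genes on the 2 sides of Cul5 in the RefSeq list were Acat1, a mitochondrial thiolase, at 0.08 ± 0.09 on the log2 scale (edgeR adjusted p = 0.808), and Sln, the calcium pump inhibitor sarcolipin, at 0.25 ± 0.54 (edgeR adjusted p = 0.906).

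The genes that work with the cullins were followed in 10 lists with 130 tested members, of which 0 passed an adjusted p of 0.05 in edgeR, DESeq2 or limma-voom. In edgeR 8 of them were higher and 7 lower in MI with a p under 0.05 before adjustment, 11.5% of the 130. Of all tested genes 3.67% were higher and 4.47% lower at that level. The groups did not overlap for 6 of them, 4.62% against 4.55%. Of the 130, 75 had a log2 fold change above 0 (57.7%), against 48.7% of all tested genes. The counts of 8 and 7 leaned on single libraries. The count over all tested genes, in brackets below, moved too, from 856 with every library. Without MI replicate 1 the 8 and 7 became 0 and 2 (598), and without MI replicate 4 they were 4 and 2 (596). Without Sham replicate 6 they were 5 and 4 (702), without Sham replicate 7 they were 1 and 5 (514). Without Sham replicate 8 they were 3 and 4 (632). They did not fall much without MI replicate 2, at 8 and 10 (1090), or MI replicate 3, at 6 and 9 (1011). Without Sham replicate 5 they were 9 and 7 (996). With the range of the animal numbers as a term they were 2 and 3 (590). The genes named next had an adjusted edgeR p of 0.601 to 0.686.

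The list of genes for the attachment and removal of Nedd8 had 7 of 11 tested genes above 0 and 4 below. Their median on the log2 scale was 0.05, and 0 passed an adjusted p of 0.05. Of all tested genes, 48.7% lay above 0. Nae1 and Uba3, the 2 subunits of the enzyme that activates Nedd8, had the smallest p of the list. Uba3 was at 152.0, 133.8, 123.9 and 142.8 CPM in MI, against 130.8, 121.7, 110.2 and 119.8 CPM in Sham, a log2 fold change of 0.20 ± 0.09. Nae1 was at 79.9 ± 8.94 CPM in MI and 68.4 ± 5.96 CPM in Sham (SD, n = 4 each), with a difference of 0.23 ± 0.10 on the log2 scale. MI and Sham values overlapped for both genes. They were the 2 of 11 genes at an unadjusted p under 0.05, a level that 8.14% of all tested genes reached. Without MI replicate 1 the log2 fold change was 0.14 for Uba3 and 0.17 for Nae1, with an unadjusted edgeR p of 0.128 and 0.130.

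For the COP9 signalosome and the cullin exchange factors, 10 of 13 tested genes lay above 0 and 3 below. The share above 0 over all tested genes was 48.7%. The median of the 13 on the log2 scale was 0.11, and 0 had an unadjusted p under 0.05. The genes with the smallest p were 2 of the 3 below 0. Cand2, the relative of Cand1 found mainly in striated muscle, was at 70.7, 91.8, 91.5 and 71.6 CPM in MI, against 90.2, 96.6, 86.6 and 108.1 CPM in Sham, a log2 fold change of -0.23 ± 0.11 (-0.16 without Sham replicate 8). Cops7a, a subunit of the signalosome, had -0.16 ± 0.09 (-0.11 without MI replicate 4). MI replicates 1 and 4 were the low ones for Cand2.

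The list named cullin adaptors held 7 tested genes, not all of them adaptors, and had a median of 0.04. Ccdc22, which the list holds although it is no adaptor but a scaffold of the COMMD protein complex that acts on cullin exchange, was at 7.08, 7.95, 7.11 and 5.76 CPM in MI, against 8.79, 10.4, 10.7 and 11.7 CPM in Sham. All MI values lay below all Sham values, with a log2 fold change of -0.56 ± 0.14. Tceb2, an older symbol of elongin B, which joins SOCS-box and VHL-box receptors to Cul5 and Cul2, had a log2 fold change of 0.17 ± 0.09. Among 9 tested ubiquitin-conjugating partners the median was 0.10. Ube2l3, an enzyme that passes ubiquitin to the Ariadne ligases working with cullins, was at 290.8, 289.4, 286.2 and 294.3 CPM in MI, against 277.8, 267.6, 245.2 and 246.7 CPM in Sham. Its 4 MI values were nearly equal and all above Sham, with a log2 fold change of 0.16 ± 0.07. Ube2d1 had 0.25 ± 0.10, or 0.15 without MI replicate 1.

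Substrate receptors were divided. Of 37 tested receptors of Cul2 and Cul5, 16 lay above 0 and 21 below, with a median of -0.02. Those at an unadjusted p under 0.05 were Fem1c (0.23 ± 0.08), Socs2 (0.62 ± 0.26) and Asb11 (0.28 ± 0.11) above 0 and Fem1a (-0.26 ± 0.10) and Rab40c (-0.51 ± 0.23) below. Of all tested genes, 8.14% were at that level. Socs2, Asb11 and Rab40c were named after their values were seen. Fem1a and Fem1c are related receptors of Cul2, and Fem1c was at 75.5, 64.4, 70.6 and 64.1 CPM in MI, against 61.0, 60.5, 58.7 and 53.5 CPM in Sham, with no overlap. Fem1a, at 370.4 ± 41.7 CPM in MI and 442.6 ± 41.6 CPM in Sham (SD, n = 4 each), lay the other way.

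Of 13 tested Cul3 receptors, 5 lay above 0 and 8 below, with a median log2 fold change of -0.03. Keap1, which holds the antioxidant factor Nrf2 for degradation, was at 39.1, 61.8, 66.6 and 41.0 CPM in MI, against 58.2, 72.8, 80.0 and 78.9 CPM in Sham. MI replicates 1 and 4 were the lowest, and the other 2 MI libraries lay among the Sham values, for a log2 fold change of -0.47 ± 0.18. Klhl9 had 0.22 ± 0.09. Of 12 tested Cul4 receptors the 2 at an unadjusted p under 0.05 were lower in MI, where 4.47% of all tested genes were lower at that level. Dcaf8 was at 78.7, 128.0, 131.3 and 98.2 CPM in MI, against 138, 160.3, 131.3 and 137.7 CPM in Sham, where MI replicate 3 and Sham replicate 7 nearly met, and its log2 fold change was -0.38 ± 0.15. Dcaf11 had -0.22 ± 0.10. Without MI replicate 1 Dcaf8 was at -0.25 and Dcaf11 at -0.19, with an unadjusted edgeR p of 0.057 and 0.099. Of 11 tested Cul1 receptors 0 were below an unadjusted p of 0.05. Their median was 0.06, and the F-box gene Fbxo30 was at 0.21 ± 0.14, or 0.12 without MI replicate 2.

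A pair of further lists complete the set. Cul9, a large relative of Cul7 with a RING domain of its own, was at 2.40, 5.50, 5.16 and 3.69 CPM in MI, against 5.93, 6.05, 9.18 and 7.01 CPM in Sham. Each MI value was below each Sham value, with a log2 fold change of -0.75 ± 0.26, at a level carried by few reads, where 3 counts equal 0.116 to 0.369 CPM. Anapc11, the RING subunit of the anaphase-promoting complex, had 0.22 ± 0.11. Ubiquitin and related modifiers had 11 of 13 genes above 0, where 48.7% of all tested genes lay above 0. The median of the 13 was 0.09, and 0 were at an unadjusted p under 0.05. The ubiquitin fusion gene Rps27a was at 0.17 ± 0.09 (0.11 without MI replicate 1). Genes such as Rps27a have near-identical copies among which reads may be divided.

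**Figure D5:**
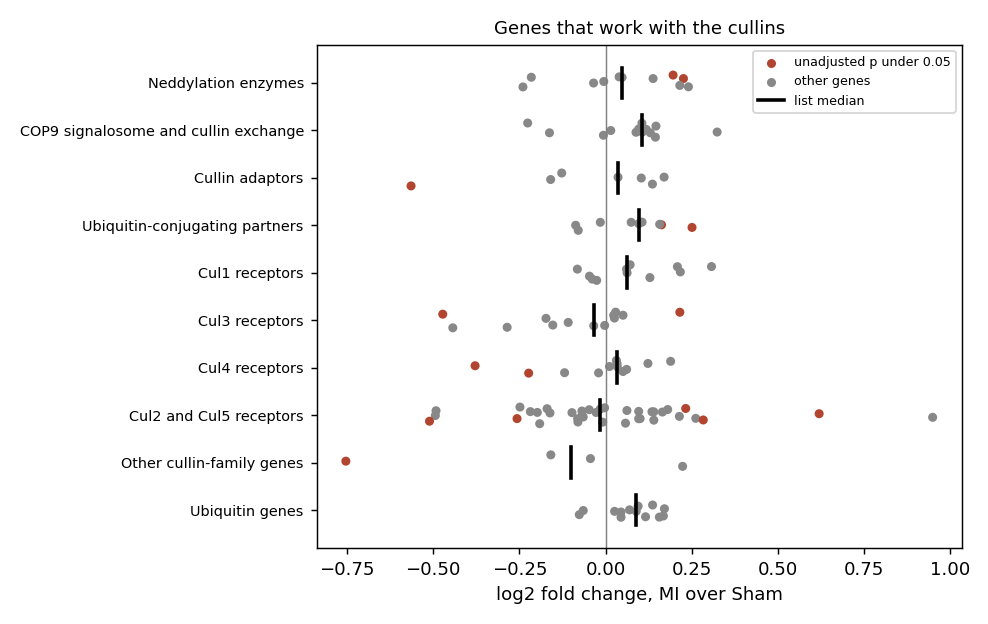
Log2 fold change of MI over Sham (horizontal axis) for the 130 tested genes of the 10 lists (rows), 1 point per gene, with an unadjusted edgeR p under 0.05 in red and the list median as a black bar. The medians lie between -0.10 and 0.11, and the red points, 8 above 0 and 7 below, belong to 7 of the lists.

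Markers of other cell types overlapped between the groups in all 7 lists examined. Red blood cell genes summed to 368.1 to 804.5 CPM in MI and 235.7 to 377.6 CPM in Sham, with 6 of 6 above 0 in every library, and their part in the level of Cul5 was not tested. The sums of MI replicates 2, 3 and 4 lay above every Sham library. Fibroblast markers summed to 1823 to 3283 CPM in MI and 1686 to 2355 CPM in Sham, endothelial markers to 245.0 to 323.1 and 246.8 to 288.9, and Schwann cell markers to 111.8 to 154.2 and 86.7 to 127.1. Macrophage markers summed to 74.95 to 129.6 CPM in MI and 81.1 to 196.4 in Sham, lymphocyte markers to 6.88 to 11.9 and 6.59 to 23.7, and adipocyte markers to 29.1 to 172.3 and 32.4 to 86.9. No defining marker was at 0 in every library.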

How the data were processed

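Total RNA of frozen diaphragm was made into libraries with a SMARTer ultra-low-input kit, per the labels' protocols, and sequenced on an Illumina machine. Kits of this kind do not keep strand. The authors deposited unnormalized counts of reads, with gene symbols as rows and animals as columns. The submitters' processing notes name bcl2fastq, STAR 2.5.0a, TopHat2, TopHat, Cufflinks and build rn5. The counting program is not given in the sources used here, nor is the annotation. Groups came from the sample titles, which give each animal its own number and no batch.

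Tests used edgeR 4.0.16 in R 4.3.3 on all rows together: filterByExpr by group, TMM scaling and the two-sided quasi-likelihood F test with robust estimation. P-values were adjusted after Benjamini and Hochberg over 10522 genes, and the threshold was 0.05. Log2 CPM used a prior count of 2. SE is the log2 fold change over the square root of F. Alternatives were RLE factors, library totals, no filter, 1 CPM in 4 libraries, DESeq2 1.42.0, limma-voom (limma 3.58.1), no robust estimation, a term for the range of animal numbers, and leaving out each library. On simulated counts with 200 of 10522 genes changed, edgeR recovered 37.3% of 1.5-fold changes and 83.6% of 2-fold changes and made 7 false calls. The simulation gave genes of the same level the same variation between animals, which real genes do not have. Its rates therefore need not hold for the real counts. Replicate libraries were no copies of one another, since their chi-square divided by the degrees of freedom was 12.1 to 44.3. Counting errors cover sampling of reads only.

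The members and the lists were chosen with earlier results of these data known. Named were all members, the 2 genes of each list with the smallest p, the 5 genes nearest to Cul5 in course and its tested neighbours. RefSeq windows matched 8 of the 9 measured members by symbol. Gene order came from RefSeq's GRCr8 list, which differs from rn5, so coordinates are given only for the printed windows, on GRCr8. Some genes that this rule names are not reported here. Some listed genes had no row under their symbol and are not analysed here.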

Additional observations from a re-analysis of the deposited data

How the results depend on the processing

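Of 27 member and partner genes followed under 16 alternatives each, 25 kept the sign of their log2 fold change throughout. The partner genes were among those with the smallest p of their lists in these same counts, and Cul5 was chosen for its MI level. For these genes the kept sign was largely fixed by the choice and is no separate evidence. The exceptions, Cul2 and Rnf7, were members not chosen in that way and lay near 0. Cul2 was at -0.00058 with the filter of 1 CPM in 4 libraries and -0.0046 with a term for the range of animal numbers, and between -0.047 and 0.038 with 1 library left out. Rnf7 was between -0.020 and 0.12 with 1 library left out. DESeq2 called 9 genes higher and 6 lower over the whole table, against 0 and 0 in edgeR, while with 1 library left out edgeR called 0 to 1 higher. Leaving aside Cul5, which was given no test, 0 of 8 members passed in each of these settings. Genes at an unadjusted p under 0.05 numbered 514 to 1090 with 1 library left out, against 856 with all. The counts of partner genes at that level, 8 higher and 7 lower, were 2 and 3 with that term and ran from 0 to 9 and from 2 to 10 with 1 library left out. These counts of unadjusted p were followed after the data were seen. The causes were not tested. No paired analysis was possible because the labels give MI and Sham animals different numbers. With 4 animals a group, SEs of 0.07 to 0.11 on the log2 scale limit what could be seen in the members.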
